A study of Mus musculus with 6 samples.

Results

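Aminoacyl-tRNA synthetases are the enzymes that join each amino acid to its tRNA, the step that fixes the genetic code in protein synthesis. Cytosolic enzymes serve the ribosomes of the cytoplasm, and a separate set of nuclear-encoded enzymes, whose symbols end in 2, is imported to serve the ribosomes of mitochondria. The genes described here were the 36 named synthetase genes found by an exact match of the symbol in the deposited files, of 18182 genes in all: 20 cytosolic genes and 16 mitochondrial genes. Gars and Kars, which make the glycine and lysine enzymes of both compartments, were counted with the cytosolic genes. All 36 were abundant enough to be tested, as were 13353 genes in the whole series (default filter of edgeR).

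Lewis lung carcinoma (LLC), a transplantable lung cancer line of the mouse, was used in a form labelled with red fluorescent protein (RFP). Wild-type C57BL/6 mice received LLC-RFP cells under the skin, either alone (LLC alone, 3 libraries) or mixed with bone marrow-derived mesenchymal stem cells (LLC with BMSCs, 3 libraries). The RFP-positive cells were sorted from the primary tumours by flow cytometry and their RNA was sequenced. The study's methods describe its allograft mice as females a few weeks old, and the labels, which give no age, do not say whether a library came from a single mouse or from pooled animals, so the spread between libraries may be technical. The injected tumour cells were all of 1 transplanted line, and each group is set against the other only, without cultured LLC cells or BMSCs.

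The libraries held 33476347 to 46189113 estimated fragments on genes. Transcript length moved with the groups: against the 6-library mean, the median log2 deviation of the quintile of genes with the shortest transcripts was 0.037 to 0.313 in LLC alone and -0.189 to -0.091 in LLC with BMSCs, and that of the longest was -0.365 to -0.003 and 0.104 to 0.18. The extreme values of LLC alone, 0.313 and -0.365, were those of replicate 3. The part of this trend in the fitted fold changes was addressed only by removing it, as given beside the results. FPKM levels, sums and ratios were not adjusted for it. Of 6 epithelial markers measured, Krt8 was at 95.3 and 110 FPKM (the authors' fragment count scaled by transcript length and library size; means of LLC alone and LLC with BMSCs), whereas Krt18, Krt19, Krt7, Epcam and Cdh1 were under 1 FPKM in both groups, with Krt19 listed at 0 in LLC alone. Markers of other cells differed between the groups. The 12 BMSC markers summed to 362 to 428 CPM (counts scaled to library size) in LLC alone and 810 to 855 CPM in LLC with BMSCs, with 10 of 10 tested markers higher. Thy1 and Cxcl12, not tested, were at 0 in LLC alone and at 0.0133 and 0.09 FPKM in LLC with BMSCs. The 12 macrophage markers summed to 24.1 to 28.8 and 36.3 to 38.9 CPM, with 6 of 8 tested higher. Cd68 was lower, from 5.55 to 3.03 FPKM, and Adgre1 was at 0 in LLC alone. C1qa and C1qc, not tested, were at 0 in LLC alone and at 0.0533 and 0.0333 FPKM in LLC with BMSCs. The 10 neutrophil markers summed to 0.469 to 0.819 and 21.4 to 24.1 CPM, with 7 of 7 tested higher. Mpo and Elane were at 0 in LLC alone, and Ly6g, not tested, had means of 0.08 and 0.0467 FPKM. Markers near 0 in LLC alone, such as Adgre1, Mpo, Ngp and S100a9, passed the filter through LLC with BMSCs. Such markers could be called only as higher. The 7 erythroid markers summed to 8.64 to 9.12 and 11.5 to 12.5 CPM, while the 7 lymphocyte markers measured and the 7 endothelial markers stayed, in sum, under 2 CPM in every library. The part of such cells in the synthetase values below was not tested, and in bulk libraries fewer cells of a type and less RNA per cell cannot be told apart.

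Several cytosolic synthetase genes are known targets of ATF4, the transcription factor of the amino acid and integrated stress responses, which binds C/EBP-ATF response elements. The core of that element, TGATGNAA on either strand, was searched in RefSeq promoter windows of GRCm38.p6 (250 bases before and 50 after the start of a gene). The labels name mm8 for the deposited values, so the windows were matched by gene identifier only; 27 of the 36 genes had one. The core was found in 5 of 13 cytosolic genes (38.5%) and in 0 of 14 mitochondrial genes, against 4.51% of 27025 genes. Of the 7 cytosolic genes with a window that fell in LLC with BMSCs (below), 4 held it, and of the 6 others 1 did. Matches in Gars, Iars, Tars and Yars are shown because, among the 27 genes with a window, the core was found in cytosolic genes only. Each line gives 30 bases of the strand of the gene, 5′ to 3′, with the match in capitals, and positions count the first base of the gene as 1.
Gars, match from -30, chr6:55037960-55037989, plus strand: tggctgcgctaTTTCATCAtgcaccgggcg
Iars, match from 8, chr13:49682126-49682155, plus strand: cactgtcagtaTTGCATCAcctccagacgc
Tars, match from -15, chr15:11399655-11399684, minus strand: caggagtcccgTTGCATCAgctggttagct
Yars, match from 4, chr4:129189895-129189924, plus strand: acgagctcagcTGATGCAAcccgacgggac

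In 3 of these 4 stretches the core lay in reverse on the strand of the gene, and 2 of the 4 lay within 20 bases after the start. The E-box CACGTG was in the windows of 4 of 13 cytosolic genes, Farsb, Iars and Tars among them, and 1 of 14 mitochondrial genes (Ears2), against 8.09% of all genes. The core of the interferon-stimulated response element was taken as TTTC, any 2 bases and TTTC on either strand. It was found in 1 of the 27 members with a window, Qars. That share, 3.7%, was near the 3.99% of all genes. The 250 bases before the start are shown for Sars, which fell and held none of the 3 motifs there, and for Qars, which rose and held the interferon core, in capitals.
Sars, chr3:108445260-108445509, minus strand: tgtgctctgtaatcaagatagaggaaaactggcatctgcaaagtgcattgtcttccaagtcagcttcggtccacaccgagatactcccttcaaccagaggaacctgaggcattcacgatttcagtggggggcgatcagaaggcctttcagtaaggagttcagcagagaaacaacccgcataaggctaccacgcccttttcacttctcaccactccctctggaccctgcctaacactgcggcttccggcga
Qars, chr9:108507755-108508004, plus strand: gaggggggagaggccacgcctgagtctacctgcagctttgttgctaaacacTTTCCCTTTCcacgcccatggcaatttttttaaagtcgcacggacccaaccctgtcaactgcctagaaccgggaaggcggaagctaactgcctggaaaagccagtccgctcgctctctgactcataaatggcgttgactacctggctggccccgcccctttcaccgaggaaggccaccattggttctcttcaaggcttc

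The cytosolic genes were expressed far above the mitochondrial genes. Over the 6 libraries, the median of the mean FPKM values was 81.0 for the 20 cytosolic genes and 7.63 for the 16 mitochondrial genes, against 9.11 for all tested genes. In LLC alone the cytosolic levels ran from 34.0 ± 0.536 FPKM for Cars to 256 ± 5.91 FPKM for Gars (SD, n = 3 each), and the mitochondrial levels from 3.78 ± 0.139 FPKM for Ears2 to 54.9 ± 4.05 FPKM for Iars2 (SD, n = 3 each). Iars2, the mitochondrial isoleucine enzyme, was the only mitochondrial gene within the cytosolic range in LLC alone. The next, Yars2, lay at 24.2 ± 3.64 FPKM (SD, n = 3).

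The total cytosolic synthetase expression was lower in LLC with BMSCs, while the mitochondrial total was nearly level. The FPKM values of the 20 cytosolic genes gave a sum of 2233, 2210 and 2218 for LLC alone and of 1816, 1788 and 1773 for LLC with BMSCs, each in the order of the replicate numbers. Every LLC with BMSCs library lay below every LLC alone library, and the mean was 1.24-fold lower. The 16 mitochondrial genes summed to 205, 208 and 203 FPKM in LLC alone and to 200, 204 and 200 FPKM in LLC with BMSCs, so that the groups overlapped. The ratio of the cytosolic to the mitochondrial sum was 10.8 ± 0.144 in LLC alone and 8.92 ± 0.163 in LLC with BMSCs (SD, n = 3 each). These sums are weighted to the most abundant genes and were not tested.

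**Figure D1:**
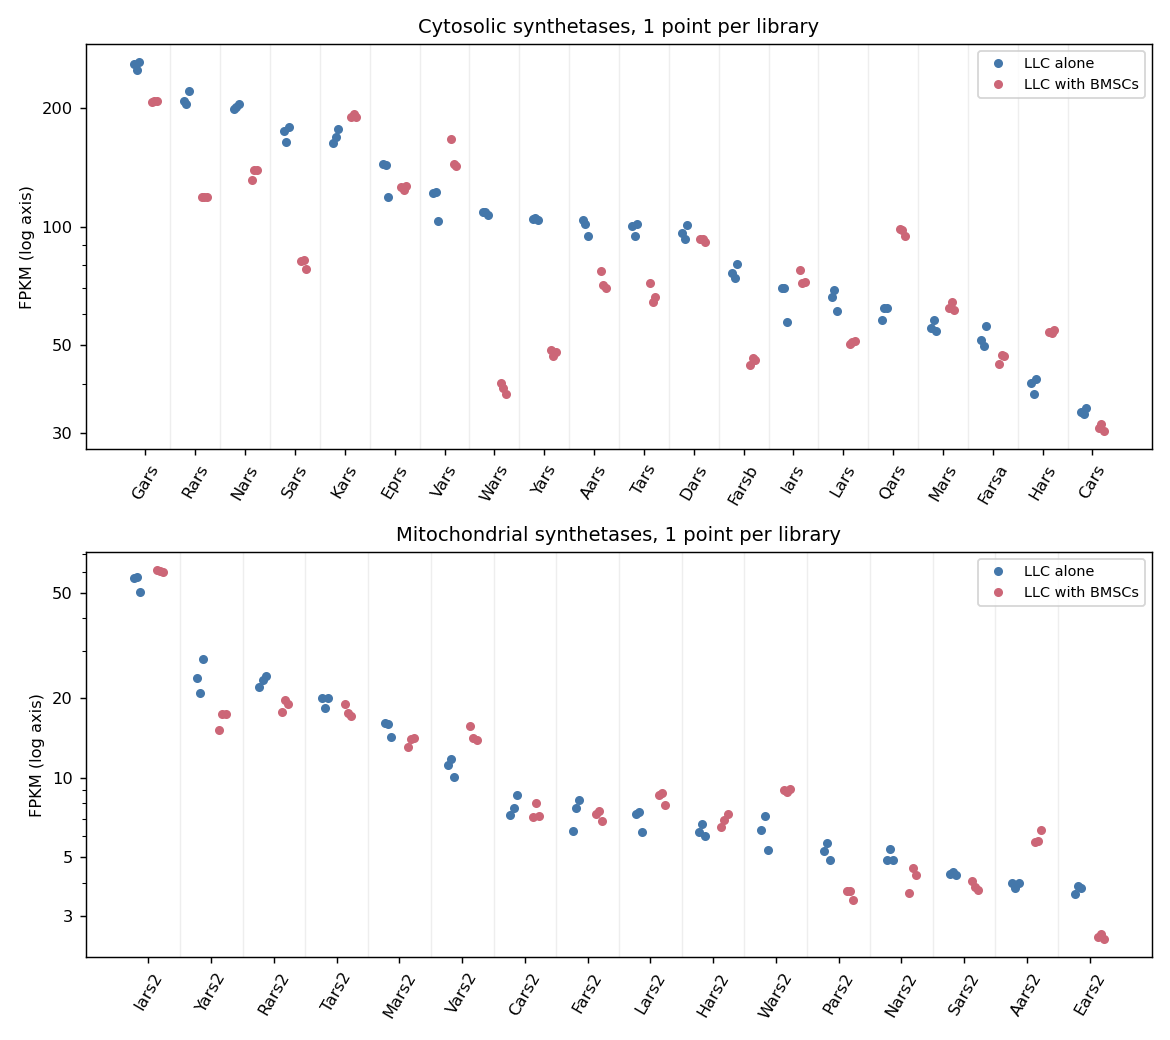
FPKM of each synthetase gene in each of the 6 libraries (log axis, 1 point per library), cytosolic genes above and mitochondrial genes below, ordered by their mean in LLC alone. Wars, Yars, Sars, Rars and Farsb part the 2 groups most among the cytosolic genes, with LLC with BMSCs lower, and Qars with LLC with BMSCs higher.

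By edgeR's quasi-likelihood test with Benjamini-Hochberg adjustment (threshold 0.05), 8 of the 36 genes were higher and 18 lower in LLC with BMSCs. Among all tested genes, 62.9% were called, 31.5% as higher and 31.3% as lower, so the members called higher were fewer and those called lower more than the background share. Of the 20 cytosolic genes, 3 rose, 12 fell and 5 did not pass the test. Of the 16 mitochondrial genes, 5 rose, 6 fell and 5 did not pass. The median log2 fold change was -0.25 for the cytosolic genes and -0.11 for the mitochondrial genes, against 0.012 for all tested genes. The cytosolic genes were also spread more widely, with an SD of 0.57 among their log2 fold changes against 0.37 for the mitochondrial genes. Changes of at least 1 on the log2 scale were found in 3 cytosolic genes and in 0 mitochondrial genes, against 15.8% of all tested genes, and of at least 0.5 in 11 of the 36 genes, against 36.7%. Without LLC alone replicate 3, which stood apart by transcript length, 5 cytosolic genes rose and 13 fell, and 5 mitochondrial genes rose and 7 fell. With each library's trend over transcript length removed, 5 cytosolic genes rose and 12 fell, and the mitochondrial median moved to -0.0115. Calls over all tested genes grew too. Without that replicate 4736 of 13541 were higher and 4539 lower, and without the trend 4758 of 13353 were higher and 4573 lower. Without LLC with BMSCs replicate 2, 3 mitochondrial genes rose. Over all genes, 3617 to 4736 were called higher with single libraries left out.

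**Figure D2:**
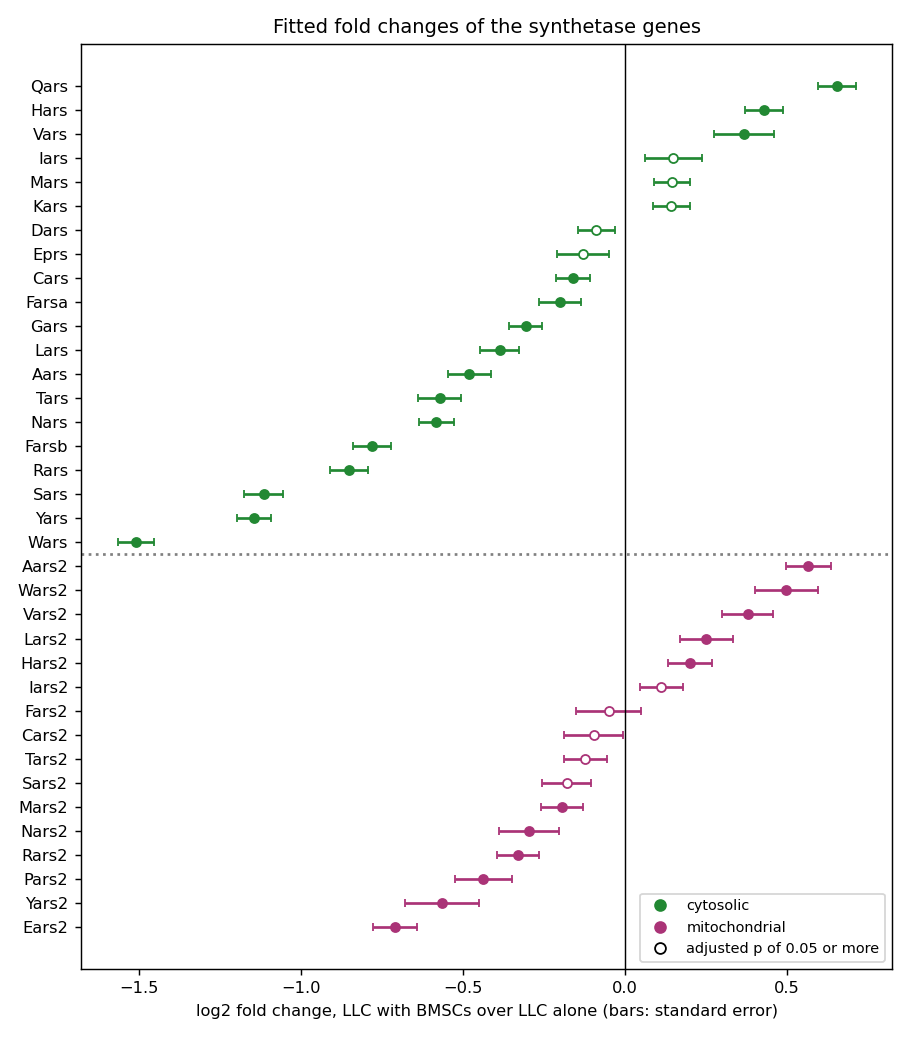
Fitted log2 fold change of each synthetase gene, LLC with BMSCs over LLC alone, with its standard error as the bar; filled points have an adjusted p under 0.05. Cytosolic genes above the dotted line range from -1.51 for Wars to 0.65 for Qars, and mitochondrial genes below it from -0.71 for Ears2 to 0.57 for Aars2.

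The largest falls were in the tryptophan, tyrosine and serine enzymes. Wars, the cytosolic tryptophan enzyme, was at 109, 109 and 107 FPKM in the LLC alone libraries and at 40.2, 38.9 and 37.7 FPKM in those of LLC with BMSCs, each in replicate order. The groups were far apart, and the fall was 2.85-fold (log2 fold change -1.51, standard error 0.056, adjusted p = 7.33e-07, edgeR). Yars, the tyrosine enzyme, went from 104, 105 and 104 FPKM to 48.7, 47.1 and 48.2 FPKM. It was 2.21-fold lower, with no overlap between the groups (log2 fold change -1.14, standard error 0.052, adjusted p = 2.00e-06, edgeR). Exons of Yars overlap 30 bases of C77080 on the opposite strand in GENCODE M21, a gene that rose by 0.90 on the log2 scale, and no source used here says whether reads were counted by strand. Sars, the serine enzyme, went from 174.5, 164 and 179 FPKM to 81.7, 82.3 and 78.2 FPKM. It was 2.17-fold lower, again with no overlap (log2 fold change -1.11, standard error 0.061, adjusted p = 4.80e-06, edgeR).

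Wars is the synthetase best known to respond to interferon. A list of 30 interferon genes, chosen with earlier results of these data known, was set beside it. All of them were higher in LLC with BMSCs (30 of 30 tested, against 31.5% of all tested genes). Their summed level was 145 to 149 CPM in LLC alone and 1054 to 1088 CPM in LLC with BMSCs. Among the largest of these rises, Iigp1, Oas2 and Oasl2 were listed at 0 to 0.0567 FPKM on average in LLC alone and at 2.54, 2.0 and 12.2 FPKM in LLC with BMSCs. Iigp1, at 0 in every LLC alone library, passed the filter through LLC with BMSCs and could be called only as higher. Wars was thus lower in the group in which each of the listed interferon genes was higher.

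The arginine and phenylalanine enzymes followed. Rars was at 208, 204 and 221 FPKM in LLC alone and at 119, 119 and 119 FPKM in LLC with BMSCs, 1.80-fold lower (log2 fold change -0.85, standard error 0.058). Cytosolic phenylalanine enzyme is built from an alpha subunit, Farsa, and a beta subunit, Farsb, and the fitted falls of their genes were of unlike size. Farsb went from 76.4, 74.1 and 80.6 FPKM to 44.6, 46.5 and 45.9 FPKM (log2 fold change -0.78, standard error 0.059, adjusted p = 2.32e-05, edgeR). Farsa went from 52.5 ± 3.08 to 46.4 ± 1.35 FPKM (SD, n = 3 each), which edgeR put at -0.20 on the log2 scale (standard error 0.065, adjusted p = 0.0275). The difference between the subunits was not tested. Farsa lost its call with the length trend removed, at a log2 fold change of -0.068 (adjusted p = 0.125, edgeR), with the close replicates summed, and without LLC alone replicate 1 or any 1 of the LLC with BMSCs libraries. The deposited counts of Farsb were not whole in 6 of 6 libraries.

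Nars and Tars, the asparagine and threonine enzymes, fell by similar amounts. Nars went from 199, 201 and 204 FPKM in LLC alone to 131, 139 and 139 FPKM in LLC with BMSCs. Tars went from 100.3, 94.9 and 101 FPKM to 71.9, 64.4 and 66.1 FPKM, 1.49-fold lower. In both genes the groups did not overlap (log2 fold changes -0.58 and -0.57, adjusted p = 6.41e-05 and 0.000212, edgeR). Among all tested genes, 33.7% were lower without overlap. Aars, Lars, Gars and Cars, the alanine, leucine, glycine and cysteine enzymes, fell less, by 0.48, 0.39, 0.31 and 0.16 on the log2 scale. Gars, the most abundant synthetase gene, was at 258, 249.3 and 261 FPKM in LLC alone and at 207, 208 and 209 FPKM in LLC with BMSCs (standard error of the log2 fold change 0.052, adjusted p = 0.00135, edgeR). Exons of Aars overlap 1326 bases of Exosc6 on the same strand in GENCODE M21; Exosc6 had a log2 fold change of 0.17 and was not called. The call of Cars was lost in 8 of 17 alternatives.

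Qars, Hars and Vars, the glutamine, histidine and valine enzymes, rose. Qars was at 57.9, 62.1 and 62.2 FPKM in LLC alone and at 98.7, 97.7 and 94.5 FPKM in LLC with BMSCs. It was 1.57-fold higher, with no overlap between the groups (log2 fold change 0.65, standard error 0.058, adjusted p = 5.30e-05, edgeR). Hars went from 39.6 ± 1.74 to 54.2 ± 0.433 FPKM (SD, n = 3 each) and Vars from 116 ± 10.8 to 151 ± 13.6 FPKM (SD, n = 3 each), with log2 fold changes of 0.43 and 0.37. Vars had fractional counts in 6 of 6 libraries. Exons of Hars overlap 195 bases of Hars2, its mitochondrial counterpart, on the opposite strand.

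The other 5 cytosolic genes did not pass the test. Eprs, a single protein that charges both glutamate and proline, was at 144, 143 and 119 FPKM in LLC alone and at 126, 124 and 127 FPKM in LLC with BMSCs. LLC alone replicate 3 was the only library of its group below the others, and without it the log2 fold change was -0.21 (adjusted p = 0.00141, edgeR) in place of -0.13 (adjusted p = 0.199). Kars, the lysine enzyme, was at 163, 169 and 177 FPKM in LLC alone and at 189, 193 and 189 FPKM in LLC with BMSCs, groups that did not overlap (log2 fold change 0.14, adjusted p = 0.0561, edgeR). Without LLC alone replicate 3 it was called, at 0.18 (adjusted p = 0.00469, edgeR). Mars, the methionine enzyme, lay just outside the threshold at 0.15 on the log2 scale (adjusted p = 0.0503, edgeR) and was called in 8 of 17 alternatives. Exons of Mars overlap 68 bases of Ddit3 on the opposite strand, and Ddit3 fell by 3.10 on the log2 scale. Iars and Dars, the isoleucine and aspartate enzymes, had log2 fold changes of 0.15 and -0.088.

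Sorted by where the proteins act, the cytosolic genes outside the multi-synthetase complex were all called, against 62.9% of all tested genes, although the calls of Cars and Farsa were lost in 8 and 6 of 17 alternatives. This complex is a large particle that holds several synthetases together on 3 scaffold proteins. Of the 8 synthetase genes of the complex, 1 rose (Qars), 2 fell (Lars and Rars) and 5 did not pass the test, with a median log2 fold change of 0.028. Without LLC alone replicate 3, and likewise with the length trend removed, 3 rose and 3 fell, Eprs, Kars and Mars being called too. Over all tested genes, 4210 rose and 4183 fell in the main fit. In these 2 settings 4736 and 4758 rose, and 4539 and 4573 fell. Of the 12 other cytosolic genes, 2 rose (Hars and Vars) and 10 fell, with a median of -0.53. The difference between the 2 sets was not tested. Of the scaffold genes, Aimp2 fell from 90.7 ± 8.48 to 56.9 ± 2.42 FPKM and Eef1e1 from 105 ± 12.5 to 71.3 ± 9.18 FPKM (SD, n = 3 each), with log2 fold changes of -0.70 and -0.58. Aimp1 had a log2 fold change of -0.14 and did not pass (adjusted p = 0.211, edgeR). With the length trend removed Aimp1 was called higher, at 0.14 (adjusted p = 0.0229, edgeR), and the falls of Aimp2 and Eef1e1 were smaller, at -0.44 and -0.28. Sorted by the fold of the catalytic domain, class I cytosolic genes rose in 2 and fell in 5 of 9 cases, and class II genes rose in 1 and fell in 7 of 10 cases. Of all tested genes 31.5% rose and 31.3% fell, and the difference between the classes was not tested. Eprs, which has a domain of each class, stood in neither set.

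ATF4 is made when eIF2 alpha is phosphorylated, and it raises genes of amino acid synthesis, amino acid uptake and tRNA charging. Of 31 tested ATF4 targets other than synthetases, 28 fell and 1 rose in LLC with BMSCs, where 31.3% of all tested genes fell and 31.5% rose. The median log2 fold change of these targets was -0.98, against 0.012 for all tested genes. This list, too, was chosen with earlier results of these data known. Atf3 and Ddit3, transcription factors of the stress response, fell furthest, by 3.15 and 3.10 on the log2 scale. The gene that rose, Vldlr, was listed at 0.01, 0 and 0 FPKM in LLC alone and at 0.25 to 0.29 FPKM in LLC with BMSCs. Atf4 itself went from 622, 588 and 709 FPKM to 382, 403 and 401 FPKM (log2 fold change -0.71, standard error 0.073, adjusted p = 0.000105, edgeR). Asns, asparagine synthetase and a common readout of ATF4, went from 242 ± 8.45 to 135 ± 3.54 FPKM (SD, n = 3 each); it was named after its values were seen.

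Of the cytosolic synthetase genes, 13 were listed as ATF4 targets from general knowledge, with earlier results of these data known. They rose in 1 case and fell in 9, and their median was -0.39 on the log2 scale. They included the 3 with the largest falls, Wars, Yars and Sars. The 7 cytosolic genes not on that list rose in 2 cases and fell in 3, with a median of -0.088, and those that fell were Rars, Farsb and Farsa. The shares of all tested genes were 31.5% higher and 31.3% lower. Without LLC alone replicate 3, 2 listed genes rose and 10 fell, and 3 of the others rose and 3 fell. With the length trend removed the numbers were 2 and 10, and 3 and 2. In these settings 4736 of 13541 and 4758 of 13353 tested genes rose, and 4539 and 4573 fell. The 2 sets overlapped widely in their fold changes, and the difference between them was not tested.

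**Figure D3:**
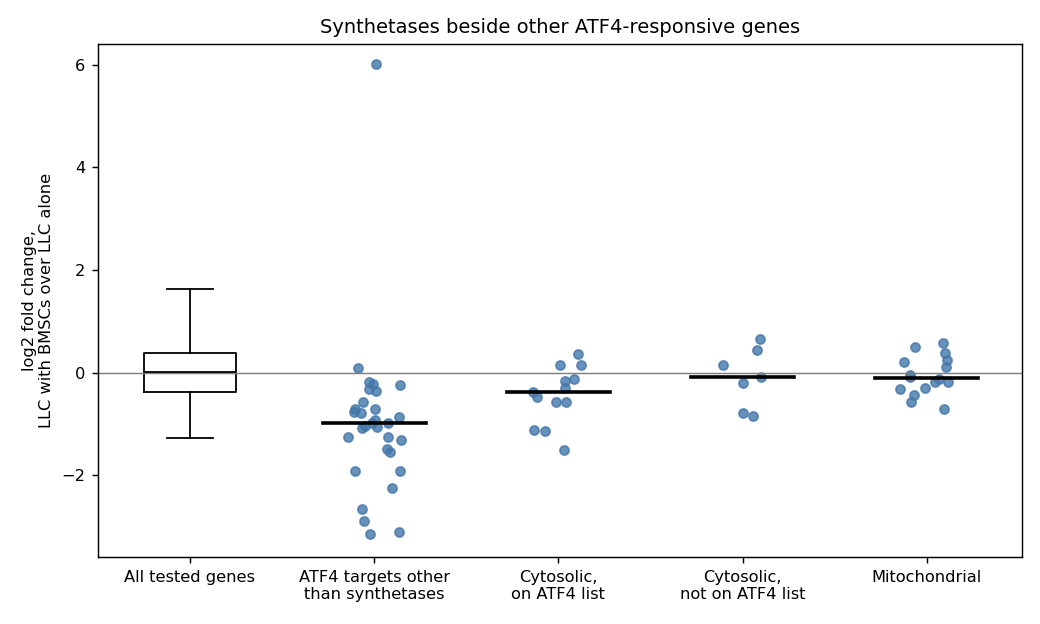
Log2 fold changes, LLC with BMSCs over LLC alone, of all tested genes (box from the first to the last quartile, whiskers from the 5th to the 95th percentile, line at the median) and of single genes in 4 lists (points, line at the median). The medians are -0.98 for the other ATF4 targets, -0.39 for cytosolic synthetases on the ATF4 list, -0.088 for those not on it and -0.11 for mitochondrial synthetases; the point near 6 is Vldlr.

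Among 10 genes around eIF2 alpha, 3 rose, 2 fell and 5 did not pass, where 31.5% of all tested genes rose and 31.3% fell. Without LLC alone replicate 3 the number that rose was 5, and 4736 of 13541 tested genes rose. Eif2ak2, the kinase PKR that senses double-stranded RNA and is induced by interferon, rose by 1.70 on the log2 scale, with levels of 8.98 ± 1.88 and 32.0 ± 0.365 FPKM (SD, n = 3 each). Eif2ak4, the kinase GCN2 that binds uncharged tRNA, rose by 0.64 on the log2 scale, with levels of 5.58 ± 0.86 and 8.76 ± 0.0872 FPKM (SD, n = 3 each). Ppp1r15a, which encodes a stress-induced subunit of the eIF2 alpha phosphatase, fell by 1.5 on the log2 scale, with levels of 63.6 ± 2.16 and 22.8 ± 0.581 FPKM (SD, n = 3 each).

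Among the mitochondrial enzymes, Ears2, Yars2 and Pars2 fell most. Ears2, the glutamate enzyme, was at 3.63, 3.90 and 3.82 FPKM in LLC alone and at 2.50, 2.57 and 2.46 FPKM in LLC with BMSCs. The groups did not overlap (log2 fold change -0.71, standard error 0.068, adjusted p = 7.64e-05, edgeR). Yars2, the tyrosine enzyme, was at 23.8, 20.8 and 28.1 FPKM in LLC alone and at 15.1, 17.4 and 17.5 FPKM in LLC with BMSCs, a log2 fold change of -0.56 (standard error 0.11). Pars2, the proline enzyme, went from 5.27, 5.65 and 4.91 FPKM to 3.74, 3.73 and 3.45 FPKM, a log2 fold change of -0.44. Each of these 3 genes was lower in every LLC with BMSCs library than in every LLC alone library, as were 33.7% of all tested genes. Rars2, Nars2 and Mars2 fell by 0.33, 0.30 and 0.19 on the log2 scale, and the calls of Nars2 and Mars2 were lost in 5 and 11 of 17 alternatives.

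Aars2, Wars2 and Vars2 rose most in mitochondria. Aars2, the alanine enzyme, was at 3.99, 3.85 and 4.01 FPKM in LLC alone and at 5.73, 5.78 and 6.33 FPKM in LLC with BMSCs, 1.48-fold higher (log2 fold change 0.57, standard error 0.069, adjusted p = 0.000254, edgeR). Wars2, the tryptophan enzyme, went from 6.36, 7.14 and 5.33 FPKM to 9, 8.86 and 9.07 FPKM, 1.41-fold higher (log2 fold change 0.50, adjusted p = 0.00278, edgeR). Vars2, the valine enzyme, went from 11.2, 11.7 and 10.1 FPKM to 15.7, 14.1 and 13.8 FPKM, 1.30-fold higher (log2 fold change 0.38, adjusted p = 0.00361, edgeR). The groups did not overlap in any of these 3 genes, where 37.0% of all tested genes were higher without overlap. Ears2, Wars2 and Vars2 had fractional counts in 6 of 6 libraries. Lars2 and Hars2 rose by 0.25 and 0.20 on the log2 scale. Their calls were lost in 3 and 9 of 17 alternatives, and the FPKM values of Hars2 overlapped between the groups. Iars2, Fars2, Cars2, Tars2 and Sars2 did not pass the test, with log2 fold changes of 0.11, -0.050, -0.095, -0.12 and -0.18.

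For 13 amino acids with 1 cytosolic and 1 mitochondrial gene, the ratio of their FPKM values was taken within each library, where scaling between libraries cancels. The trend over transcript length does not cancel where the genes of a pair differ in length. Wars and Wars2 had mean lengths of 2796 and 4022 bases, and Sars and Sars2 of 3635 and 1910. The ratios were not recomputed with that trend removed. The ratio was lower in LLC with BMSCs for 10 amino acids and higher for 3, and the groups did not overlap for 8 of the 10 and 2 of the 3. Ratios of other gene pairs were not taken, so this count has no background share. Of single tested genes, 70.6% did not overlap. The median difference was -0.43 on the log2 scale. For tryptophan the cytosolic gene was 17.1, 15.2 and 20.1 times the mitochondrial gene in LLC alone and 4.46, 4.39 and 4.15 times in LLC with BMSCs, a log2 difference of -2.0. Here Wars fell while Wars2 rose. Alanine showed the same opposite movement, with ratios of 25.3 ± 1.49 and 12.3 ± 1.20 (SD, n = 3 each), a log2 difference of -1.05. For serine the ratio went from 39.6 ± 2.18 to 20.7 ± 0.599 (SD, n = 3 each). Leucine, tyrosine, arginine, threonine and asparagine followed with differences from -0.64 to -0.28.

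Valine had ratios of 10.5 ± 0.347 and 10.4 ± 0.197 (SD, n = 3 each), with Vars and Vars2 both higher in LLC with BMSCs. Cysteine and isoleucine also overlapped between the groups, at log2 differences of -0.068 and 0.039. Methionine and histidine were the pairs whose ratio was higher without overlap, at 0.34 and 0.32. For each of the 10 pairs without overlap, the exact permutation test gave a two-sided p of 0.1, the smallest that 3 libraries against 3 allow, and 0.13 after Benjamini-Hochberg adjustment over the 13 pairs. Taken singly, 31 of the 36 genes did not overlap between the groups in FPKM, 11 of them higher and 20 lower in LLC with BMSCs, against 70.6% of all tested genes, 37.0% higher and 33.7% lower.

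**Figure D4:**
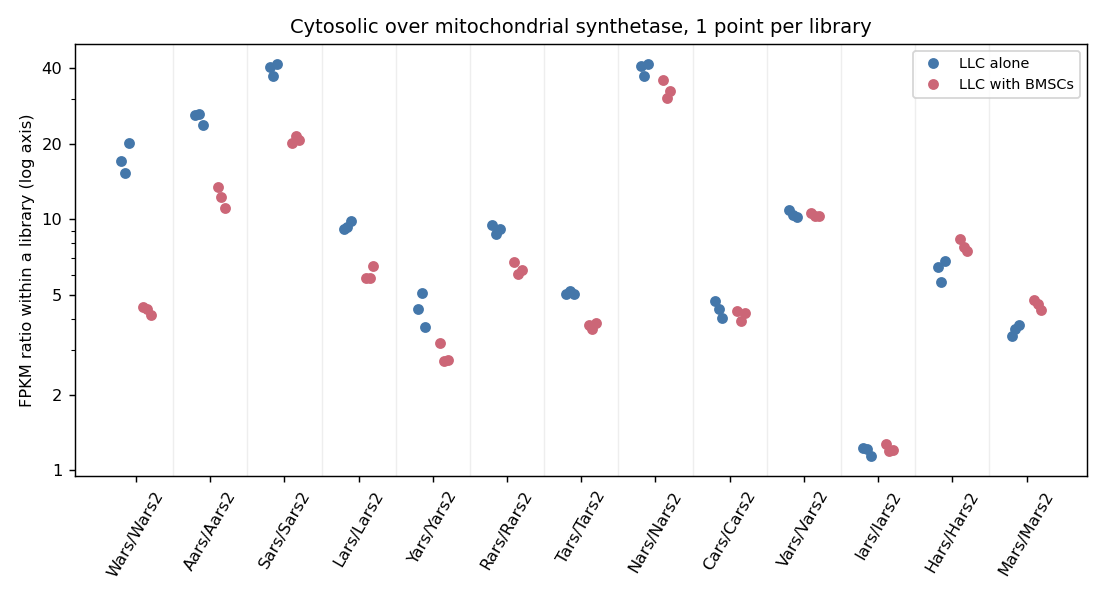
Ratio of the FPKM of a cytosolic synthetase gene to that of its mitochondrial counterpart within each library (log axis, 1 point per library) for 13 amino acids, ordered by the difference between the groups. The tryptophan pair falls from 15.2 to 20.1 in LLC alone to 4.15 to 4.46 in LLC with BMSCs, while the valine pair stays between 10.2 and 10.9 in all 6 libraries.

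Genes that work beside the synthetases moved in both directions. Of 18 genes of tRNA export, trimming, selenocysteine charging and proofreading, 2 rose and 9 fell, at a median of -0.19 on the log2 scale, where 31.5% of all tested genes rose and 31.3% fell. With the length trend removed 5 rose and 7 fell and the median was -0.0216, and without LLC alone replicate 3 there were 4 that rose. Over all tested genes, 4758 of 13353 rose and 4573 fell in the first of these settings. In the second, 4736 of 13541 rose and 4539 fell. The largest falls were those of Rpp40, a subunit of RNase P, Dtd2, which removes wrongly attached amino acids from tRNA, and Sepsecs, which makes selenocysteine on its tRNA, by 0.83, 0.83 and 0.79 on the log2 scale. Of 19 tested mitochondrial translation partners, 5 rose and 7 fell, with a median of -0.090, shares near those of all genes. With the length trend removed 8 rose and 7 fell, with a median of -0.0282. Mtfmt, which formylates the initiator tRNA of mitochondria, and Tufm, the mitochondrial elongation factor, rose by 0.49 and 0.48, and Tfam, which packages mitochondrial DNA, fell by 0.49 on the log2 scale. Of 6 cytosolic elongation factor genes, 1 rose and 2 fell, whereas 3 rose and 2 fell with the length trend removed and also without LLC alone replicate 3, and the median of -0.054 became 0.10 and 0.017. Eef1a1, the factor that carries charged tRNA to the ribosome, and Eef1b2, a subunit of its exchange factor, fell by 0.30 and 0.40 on the log2 scale, and Eef2, the translocation factor, rose by 0.19.

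For genes with several transcripts, the deposited files give FPKM values for each. For Wars, NM_001164314 held 97.0% of the FPKM in LLC alone and 94.2% in LLC with BMSCs, at 105 ± 0.674 and 36.6 ± 1.02 FPKM (SD, n = 3 each). For Sars, NM_001204979 went from 166 ± 7.15 to 77.2 ± 1.99 FPKM (SD, n = 3 each), and the other transcript from 6.83 ± 0.551 to 3.60 ± 0.356 FPKM (SD, n = 3 each). Both transcripts of Nars, both of Farsb and both of Wars2 had means that differed in the direction of their gene. In Hars2, looked at after its values were seen, they did not: the main transcript, NM_080636, went from 4.07 ± 0.403 to 2.94 ± 0.326 FPKM (SD, n = 3 each), while both others had higher means in LLC with BMSCs. Of the 4 transcripts of Pars2, NM_172272 went from 2.28 ± 0.362 to 0.733 ± 0.146 FPKM (SD, n = 3 each), whereas NM_001083887 stayed at 1.60 ± 0.474 and 1.59 ± 0.199 FPKM (SD, n = 3 each). In Ears2, the annotated transcript went from 2.62 ± 0.18 to 1.43 ± 0.121 FPKM and the transcript assembled by the authors from 1.17 ± 0.176 to 1.07 ± 0.0702 FPKM (SD, n = 3 each). These transcript values are the authors' estimates for overlapping transcripts and were not tested.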

How the data were processed

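RNA was measured in RFP-positive cells sorted from tumours of 3 LLC alone and 3 LLC with BMSCs samples, grouped by the titles in the labels. Per the paper's methods, oligo-dT beads were used to capture mRNA, which was read on the BGISEQ-500; the labels name Illumina library protocols. The submitters' processing notes name HISAT, StringTie, Cufflinks, GATK and mm8, without saying which made the values. Estimated counts, not normalized, were deposited by the authors for genes and transcripts; 21.9% to 23.2% of the listed genes in a library were not whole (tolerance 0.005), and the cause of this was not tested. The authors also deposited FPKM values, which were used for levels, and gene lengths. A table of the whole series was not used.

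After rounding of the counts, 13353 genes passed the default filter of edgeR 4.0.16 (R 4.3.3) and were tested by its quasi-likelihood test with TMM normalization; p-values were adjusted by Benjamini-Hochberg over all of them and called under 0.05. Standard errors were derived from each gene's fold change and its quasi-likelihood F statistic. With 3 libraries a group, single FPKM ratios were compared by exact permutation tests. At these depths 3 counts equal at most 0.0896 CPM; precision is limited by the number of libraries. The scripts were checked on simulated data. Alternatives were DESeq2 1.42.0, other scaling, other filters, limma 3.58.1 on log2(FPKM + 1) and log2(FPKM + 0.1), a replicate block, removal of each library's length trend, leaving out single libraries, and summing the closest replicates.

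Replicates within a group differed by a chi-square of 2.98 to 59.3 per gene, lowest for LLC with BMSCs replicates 2 and 3 and, at 4.69, for LLC alone replicates 1 and 2, and none was merged in the main analysis. Members and lists were chosen with earlier results of these data known. All members are named; values in every library are given for the 8 cytosolic and 6 mitochondrial genes with the largest absolute log2 fold change and for Eprs, Gars, Kars, Qars and Wars by role. The scaffold genes and the 3 largest called changes of each other list are named. Protein motifs were not analysed here, and 1 promoter sequence is not reported here.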

Additional observations from a re-analysis of the deposited data

How the results depend on the processing

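Of the 26 called members, 20 kept their call and direction in all 17 alternatives; the call of 6 (Cars, Farsa, Hars2, Lars2, Mars2 and Nars2) was lost in at least 1, and 5 uncalled members (Eprs, Kars, Mars, Sars2 and Tars2) were called in at least 1. The cytosolic genes called higher numbered 5 in place of 3 with DESeq2, with library size without TMM, with each of the 3 limma settings and with the length trend removed. The mitochondrial genes called higher numbered 3 in place of 5 with the close replicates summed. The median log2 fold change of the cytosolic genes was -0.23 with library size without TMM, -0.28 with upper-quartile scaling, -0.235 with limma on log2(FPKM + 1) with or without a filter, -0.24 with limma on log2(FPKM + 0.1), -0.27 with the length trend removed and -0.28 with the close replicates summed. That of the mitochondrial genes was -0.14 with upper-quartile scaling and -0.0115 with the length trend removed. With single libraries left out, the cytosolic genes called higher numbered 3 to 5 and the mitochondrial genes called higher 3 to 5. The cytosolic median was then -0.28 to -0.24 and the mitochondrial median -0.15 to -0.085. All genes called higher numbered 3617 to 4736 with single libraries left out and 3364 to 4758 in the other alternatives. Fars2, never called, turned to 0.098 and Cars2 to 0.034 with the length trend removed; Fars2 ranged from -0.15 to 0.037 and the log2 ratio of Vars to Vars2 from -0.035 to 0.011 with single libraries left out. The cause of these moves was not tested.

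Same-numbered libraries of the 2 groups showed no clear shared deviation (correlations 0.076, -0.106 and 0.057). With 3 libraries a group, and deviations that hold the length trend, this check cannot tell whether the numbers pair them. With the replicate number as a block, 3 cytosolic genes were called higher and 11 lower, and 4 mitochondrial genes higher and 5 lower. Over all genes, 4161 were called higher and 4058 lower. By depth, the member with the fewest counts, Sars2, had a mean of 307 normalized counts in LLC with BMSCs.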
